A study of Monodelphis domestica with 6 samples.

Results

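Genes of the germline and of the piRNA pathway were followed in neonatal skin fibroblasts (neoSFs) of the opossum Monodelphis domestica and in the induced pluripotent stem cell lines reprogrammed from them (monoiPSCs). The genes were chosen by name, with earlier results of these data known. DAZL, DDX4, NANOS3 and DND1 encode RNA-binding proteins of germ cells. PIWIL1, PIWIL2, MAEL, TDRD1 and MOV10L1 belong to the piRNA pathway, and SYCP3 to the meiotic chromosome. Of these 10 genes, 8 have a row under their symbol among the 35665 genes of the tables. MOV10L1 was found by gene number (100619593) under a placeholder symbol and was left out of the counts of members, and PIWIL1 was not analysed here.

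The libraries came from wild-type FD2M1 and LSD1, which are inbred strains. There was 1 neoSF library for each strain, from untreated primary skin fibroblast cultures of 10-day-old female pups, and 4 monoiPSC libraries, 1 for each strain's line at passages 15 and 25. The lines were made with episomal plasmids that carried human OCT4, SOX2, NANOG, KLF4, LIN28 and cMYC together with a p53 mutant and EBNA1, and were grown without feeder cells with LIF, bFGF and a ROCK inhibitor. The passages of a line are not separate derivations, and nothing says that libraries of a group are separate cultures otherwise, so p-values measure the spread between these libraries only. The neoSF libraries were read single-end in house and the monoiPSC libraries paired-end by a service, so the sequencing and the cell type cannot be told apart.

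The neoSF libraries held 14278794 (FD2M1) and 16982978 (LSD1) counts and the monoiPSC libraries 28684754 to 35564261. Levels are given as normalized read counts (NRC), the count scaled by the authors' factor for the library. The scaling makes 3 counts worth an NRC of 5.85 and 4.75 in the neoSFs but 1.55 to 1.88 in the monoiPSCs, so low levels were measured less finely in fibroblasts. A gene was called expressed in a group at an NRC of at least 20 in each of its libraries and at the floor with at most 3 counts in each. As a check of the labels, summed NRC of 7 pluripotency markers was 194 and 130 in neoSFs and 9716 to 13745 in monoiPSCs, and that of 9 fibroblast markers was 1572902 and 1727373 in neoSFs and 10841 to 13314 in monoiPSCs. At the thresholds given below, 8 of the 9 fibroblast markers were lower and 1 was higher in monoiPSCs, where 8 were still expressed. Keratinocyte markers (3 genes) summed to 6.73 at most in monoiPSCs, against 56.6 and 156 in neoSFs.

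In mammals, germ cells are set aside early in the embryo and keep a set of RNA-binding proteins that hold back somatic programmes and protect their messages. Their genome is guarded by piRNAs, small RNAs bound by PIWI proteins, which direct the cutting of transposon transcripts and the methylation of transposon DNA. Tudor domain proteins gather the PIWI proteins in granules beside mitochondria, where piRNAs are made. At meiosis, homologous chromosomes pair along the synaptonemal complex. In somatic cells many of these genes are kept silent by promoter DNA methylation and by a Polycomb complex that contains E2F6.

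Most of these genes stayed under the expression threshold in both cell types, as did most genes of the series. Of the 8 genes, 3 (DND1, MAEL and SYCP3) were expressed in neoSFs and the same 3 in monoiPSCs, beside 33.1% and 34.4% of all genes. None of these 3 was a DE gene (edgeR quasi-likelihood test, adjusted p of at most 0.05 over 13072 genes and a change of at least 2-fold), where 45.9% of all tested genes were called, 24.3% higher and 21.6% lower in monoiPSCs. None of the 3 had an unadjusted p under 0.05 with edgeR, and DESeq2 and limma called none of them. The other 5 did not reach the expression filter in either group, and TDRD1 alone among them was called in a fit without the filter, in which 38.4% of 17674 genes were called. The levels of 2 of the 8, TDRD1 and NANOS3, did not overlap between groups, and neither did those of 62.3% of the 17783 genes with a count.

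**Figure D1:**
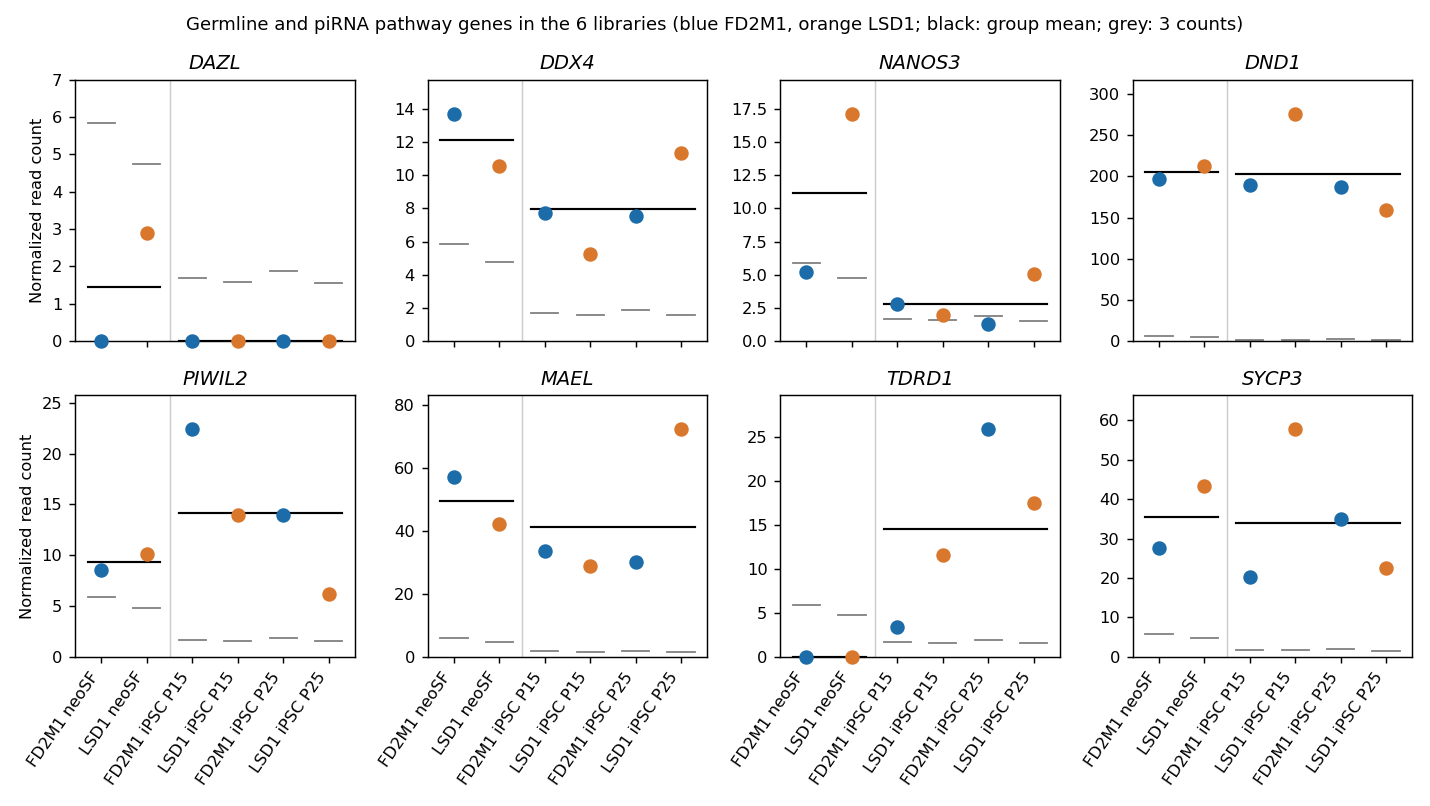
Normalized read count (linear axis, a separate scale for each gene) of the 8 genes in the 2 neoSF and 4 monoiPSC libraries, with blue points for FD2M1, orange points for LSD1, a black line for each group mean and a grey line for the level of 3 counts in each library. TDRD1 lies at 0 in both neoSF libraries and at 3.37 to 25.9 in monoiPSCs, while DND1, MAEL and SYCP3 overlap between the groups.

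DND1 protects germ cells from death and binds messenger RNAs together with NANOS proteins. Its gene number is 100026434, on chromosome 1 of MonDom5. The NRC of DND1 was 197 in FD2M1 and 213 in LSD1 neoSFs, and in monoiPSCs 190 (FD2M1, passage 15), 276 (LSD1, passage 15), 188 (FD2M1, passage 25) and 159 (LSD1, passage 25). The 2 neoSF values lie inside the monoiPSC range, whose highest and lowest values both belong to the LSD1 line. The means were 205 ± 11.5 (SD, n = 2) and 203 ± 50.6 (SD, n = 4). The log2 fold change of monoiPSCs against neoSFs was 0.09 (SE 0.29, edgeR adjusted p = 0.812), with a 95% interval of -0.59 to 0.76. With passage 15 as the only monoiPSC libraries the interval was -0.60 to 1.14, and without the LSD1 neoSF library -0.79 to 1.08, both of which reach past a 2-fold rise.

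DND1 is not alone at its locus. In the RefSeq table of the mMonDom1.pri assembly, DND1 overlaps WDR55, a nucleolar WD repeat protein gene, and HARS1, which encodes a histidyl-tRNA synthetase, lies 125 bases away. WDR55 had an NRC of 680 and 549 in neoSFs and 496 to 620 in monoiPSCs, and HARS1 2204 and 2081 in neoSFs and 1168 to 1788 in monoiPSCs. The sources name both a stranded and an unstranded preparation, so the share of DND1 reads that belong to its neighbours is uncertain.

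DAZL, which binds germ cell messages and regulates their translation, was at the floor in both groups. The gene (100030843, chromosome 8) had 0.500 counts in FD2M1 and 1.83 in LSD1 neoSFs, and 0 in all 4 monoiPSC libraries. No fold change is given, since at most 3 counts in each library were taken as the floor. A DAZL message at or under that level in monoiPSCs could have been missed at this depth.

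DDX4, the vasa RNA helicase that marks the germline in most animals, was detected in all 6 libraries at a trace level. For DDX4 (100017198, chromosome 3) the NRC was 13.7 in FD2M1 and 10.6 in LSD1 neoSFs, and in monoiPSCs 7.73 and 5.26 at passage 15 and 7.53 and 11.3 at passage 25 (FD2M1, then LSD1). These rest on 7.02 and 6.67 counts in neoSFs and 10.0 to 22.0 in monoiPSCs. The highest value is that of FD2M1 neoSFs, and the groups overlap through the LSD1 line at passage 25. The fit without the filter gave a log2 fold change of -0.53 (SE 0.67, edgeR adjusted p = 0.541, 95% interval -2.06 to 0.99).

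NANOS3 keeps primordial germ cells alive. Its NRC (100027132, chromosome 3) was 5.21 in FD2M1 and 17.1 in LSD1 neoSFs, and in monoiPSCs 2.81 and 1.96 at passage 15 and 1.26 and 5.09 at passage 25 (FD2M1, then LSD1). The neoSF values were both above the 4 monoiPSC values, by a narrow margin for FD2M1 neoSFs, whose value came from 2.67 counts. The log2 fold change without the filter was -1.93 (SE 0.87, edgeR adjusted p = 0.0984, 95% interval -3.92 to 0.06). Without the LSD1 neoSF library it was -0.92 (edgeR adjusted p = 0.624). The exact two-sided permutation test gave p = 0.0667, the smallest that 15 splits of 6 libraries allow.

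Among the piRNA genes, TDRD1 was detected in monoiPSCs and not in neoSFs. TDRD1 is a Tudor domain scaffold that binds PIWI proteins in germ cell granules. Its counts (100027328, chromosome 1) were 0 in both neoSF libraries, and 6.00 and 21.9 at passage 15 and 41.3 and 33.9 at passage 25 in the monoiPSC lines (FD2M1, then LSD1). As NRC, the monoiPSC values were 3.37, 11.5, 25.9 and 17.5 in the same order. All 4 monoiPSC values were above the neoSF values, but that of the FD2M1 line at passage 15 lies under the NRC that 3 counts have in the neoSF libraries, where an equal level would be near the limit of detection.

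The mean TDRD1 level in monoiPSCs, an NRC of 14.6 ± 9.51 (SD, n = 4), was at least 2.49-fold higher than in neoSFs, taking 3 counts in the FD2M1 neoSF library as the limit. In the fit without the filter TDRD1 was called higher (edgeR adjusted p = 0.0201), in a background of 21.0% called higher. Leaving out the FD2M1 neoSFs gave an edgeR adjusted p of 0.0660 and leaving out the LSD1 neoSFs 0.0799, so the call was lost with either one left out. Here, as for all genes in these bulk cultures, a few cells with much RNA and many cells with little cannot be told apart.

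PIWIL2, a PIWI protein that cuts transposon transcripts and takes part in piRNA amplification, was low in both groups. The NRC of PIWIL2 (100030567, chromosome 1) was 8.53 in FD2M1 and 10.1 in LSD1 neoSFs, and in monoiPSCs 22.4 and 13.9 at passage 15 and 14.0 and 6.18 at passage 25 (FD2M1, then LSD1). The LSD1 line at passage 25 was the lowest of the 6 libraries, so the groups overlap. Counts were 4.37 and 6.40 in neoSFs and 12.0 to 39.9 in monoiPSCs, and the log2 fold change without the filter was 0.79 (SE 0.74, edgeR adjusted p = 0.412, 95% interval -0.90 to 2.48).

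MAEL, a granule protein needed for transposon silencing in germ cells, was expressed at a modest level in both groups. Its NRC (100013469, chromosome 2) was 56.9 in FD2M1 and 42.0 in LSD1 neoSFs, and in monoiPSCs 33.7 and 28.9 at passage 15 and 29.9 and 72.1 at passage 25 (FD2M1, then LSD1). Of the monoiPSC values 3 lie under both neoSF values and 1, the LSD1 line at passage 25, lies above both. The mean was 49.4 ± 10.6 (SD, n = 2) for neoSFs and 41.2 ± 20.7 (SD, n = 4) for the monoiPSC libraries. The log2 fold change was -0.14 (SE 0.50, edgeR adjusted p = 0.815, 95% interval -1.31 to 1.02), and without the LSD1 library of passage 25 it was -0.57 (edgeR adjusted p = 0.216).

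The library in which MAEL was highest also differed in markers of other cell types. It held the highest summed NRC of the 4 monoiPSC libraries for skeletal muscle markers (5 genes, 12561 against 1657 to 5368) and neural markers (7 genes, 16459 against 7371 to 12466), and the lowest for pluripotency markers (9716 against 12139 to 13745). Melanocyte markers (5 genes, 4604 to 15571) were highest in the LSD1 line at passage 15. Summed endoderm markers (6 genes) were 3784 and 3850 in the passage 25 libraries against 1158 and 1534 at passage 15. Only 1 of those 6 was expressed in monoiPSCs, and GATA4 and APOA2 were at the floor in all libraries. Expressed in monoiPSCs were 3 of 5 muscle, 5 of 7 neural and 2 of 5 melanocyte markers. In neoSFs the sums were 16641 and 21506 for muscle, 7313 and 25792 for neural, 257 and 407 for melanocyte and 521 and 1218 for endoderm markers (FD2M1, then LSD1). Their part in the MAEL value was not tested. MAEL also overlaps ILDR2, a membrane protein gene, in the RefSeq table, and the NRC of ILDR2 was 35.1 and 95.6 in neoSFs and 19.6, 50.7, 55.2 and 84.1 in monoiPSCs, with its highest monoiPSC value in that same library.

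MOV10L1, the helicase that feeds piRNA precursors into processing, had 0.833 counts in the LSD1 neoSF library and 0 in the other 5. It was at the floor in both groups.

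SYCP3, which forms the lateral elements of the synaptonemal complex, was expressed in both groups. The NRC of SYCP3 (103093140, chromosome 8) was 27.7 in FD2M1 and 43.4 in LSD1 neoSFs, and in monoiPSCs 20.3 and 57.7 at passage 15 and 35.0 and 22.4 at passage 25 (FD2M1, then LSD1). Both the highest and the lowest of the 6 values are monoiPSC libraries of passage 15. The means were 35.6 ± 11.1 (SD, n = 2) and 33.8 ± 17.2 (SD, n = 4). The log2 fold change was 0.04 (SE 0.55, edgeR adjusted p = 0.958), and its 95% interval of -1.25 to 1.33 leaves room for a 2-fold change either way.

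The differences between passages had no direction in common over the members. The LSD1 and FD2M1 lines each have 1 library per passage, so the differences within a line have no replicate. From passage 15 to 25, TDRD1 differed by 2.94 (FD2M1) and 0.60 (LSD1) on the log2 NRC scale and PIWIL2 by -0.68 and -1.17, the same direction in both lines. DND1 differed by -0.014 and -0.80. MAEL (-0.17 and 1.32), SYCP3 (0.79 and -1.36), DDX4 (-0.038 and 1.11) and NANOS3 (-1.16 and 1.38) had opposite signs in the lines.

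**Figure D2:**
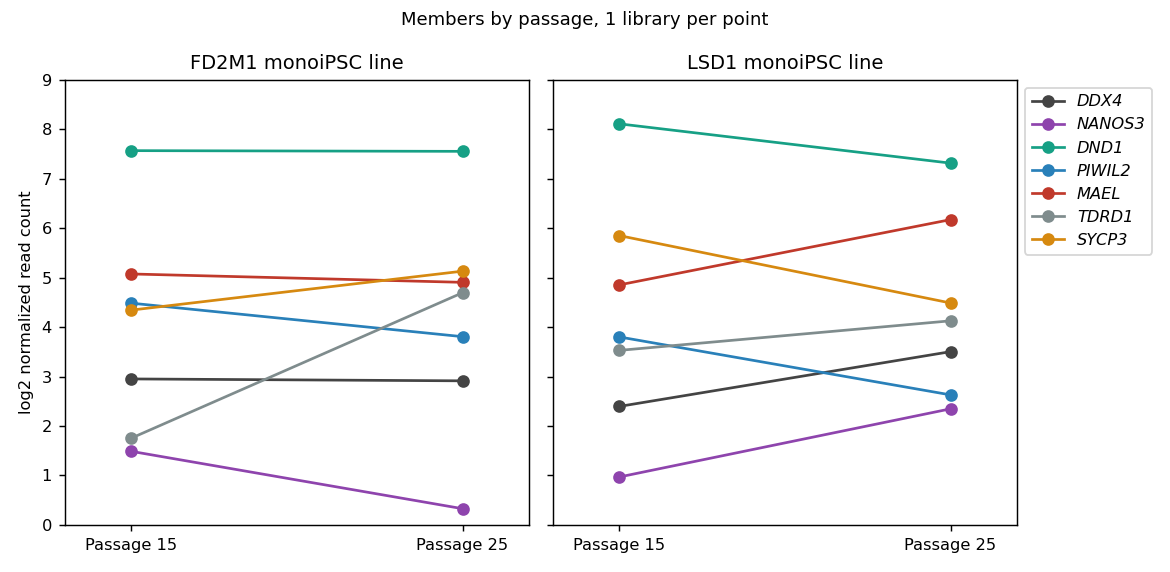
Log2 normalized read count of 7 germline and piRNA genes at passages 15 and 25 in the FD2M1 line (left) and the LSD1 line (right), with 1 library per point. TDRD1 is higher and PIWIL2 lower at passage 25 in both lines, while MAEL and SYCP3 slope in opposite directions.

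Over the 4 monoiPSC libraries, edgeR called 0 of 12252 genes (0.0%) between passages with strain as a covariate. At an unadjusted p under 0.05 there were 1145, and DESeq2 called 115. DND1 had a log2 difference of -0.42 (edgeR adjusted p = 0.688), MAEL of 0.58 (edgeR adjusted p = 0.719) and SYCP3 of -0.34 (edgeR adjusted p = 0.879). In the fit without the filter the values were 1.64 for TDRD1 (edgeR adjusted p = 0.701) and -0.94 for PIWIL2 (edgeR adjusted p = 0.785).

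The LSD1 and FD2M1 lines likewise gave 0 of 12252 edgeR calls (0.0%) with passage as a covariate, with 1736 at an unadjusted p under 0.05 and 192 DESeq2 calls. LSD1 against FD2M1, the log2 difference was 0.16 for DND1 (edgeR adjusted p = 0.859), 0.54 for MAEL (edgeR adjusted p = 0.657) and 0.44 for SYCP3 (edgeR adjusted p = 0.790). The change from neoSF to monoiPSC was also compared between strains. The interaction was called for 11 of 13072 genes (0.0841%) and for none of DND1, MAEL (1.10, edgeR adjusted p = 0.869) and SYCP3, with 1193 genes at an unadjusted p under 0.05 and 304 called by DESeq2.

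The spread within monoiPSCs was wide for most of the members. The coefficient of variation of the NRC over the 4 libraries was 24.9% for DND1, 31.5% for DDX4, 46.8% for PIWIL2, 50.4% for MAEL, 50.7% for SYCP3, 60.0% for NANOS3 and 65.3% for TDRD1. This spread includes counting error, which was not separated from it. The monoiPSC counts were only 2.00 to 9.88 for NANOS3, 10.0 to 22.0 for DDX4 and 6.00 to 41.3 for TDRD1.

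Of 25 other piRNA genes with a row, 14 passed the expression filter, 6 of which rose (42.9%, beside 24.3% of all genes tested), 4 fell (28.6%, beside 21.6%) and 4 did not pass the test, with a median log2 fold change of 0.94 beside 0.08 over all genes tested. TDRKH, a mitochondrial Tudor protein that recruits PIWI proteins for trimming of piRNA ends, had an NRC of 29.9 and 94.6 in neoSFs and 772, 1175, 1166 and 1223 in monoiPSCs. It rose by 4.19 (log2, SE 0.48, edgeR adjusted p = 0.000312). TDRD5, a Tudor protein of piRNA biogenesis, had 17.6 and 62.0 in neoSFs and 395 to 670 in monoiPSCs and rose by 3.82 (SE 0.52, edgeR adjusted p = 0.000659).

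MYBL1, the transcription factor that switches on piRNA precursor genes in meiosis, rose by 2.17 (log2, SE 0.48, edgeR adjusted p = 0.00582), from 120 and 39.6 to between 283 and 449. Among those that fell, TDRD15, a Tudor family gene, went from 60.1 and 44.3 in neoSFs to between 2.06 and 6.73 in monoiPSCs (log2 -3.67, SE 0.53, edgeR adjusted p = 0.00087). TDRD7, a Tudor protein of germ cell granules that also acts in the lens, went from 596 and 728 to between 169 and 225 (log2 -1.67, SE 0.21, edgeR adjusted p = 0.000472). HENMT1, which methylates the ends of piRNAs, fell by 1.37 (log2, SE 0.44, edgeR adjusted p = 0.0287). Without the LSD1 neoSF library 2 piRNA genes were called lower in place of 4, and with passage 15 as the only monoiPSC libraries 3 were called higher and 2 lower.

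Of the 25 genes, 12 were expressed in neoSFs, 11 in monoiPSCs and 9 in both, and MORC1 and DDX25 were at the floor in all 6 libraries.

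**Figure D3:**
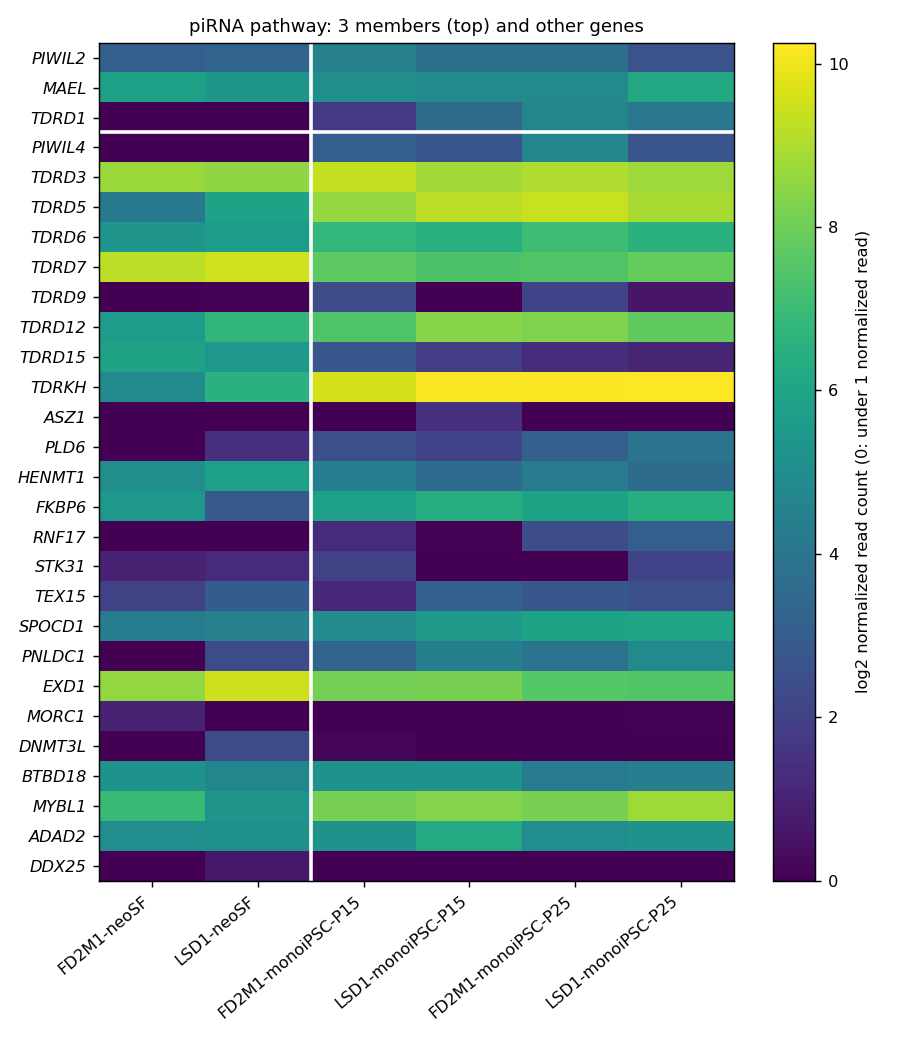
Colour scale of log2 normalized read count (dark to yellow, 0 for under 1 normalized read) of PIWIL2, MAEL and TDRD1 above the horizontal line and 25 other piRNA pathway genes below it, in the 2 neoSF libraries left of the vertical line and the 4 monoiPSC libraries right of it. Rows are to be read across libraries and not against each other, since transcript lengths differ. TDRKH and TDRD5 brighten and TDRD15 darkens from neoSFs to monoiPSCs.

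Of 31 other meiotic chromosome and recombination genes with a row, 12 were tested. Of these 5 rose (41.7%, beside 24.3% of all genes tested) and 1 fell (8.33%, beside 21.6%), with a median log2 fold change of 0.49. Without a filter 8 of 31 were called higher (25.8%, beside 21.0% of all genes) and 1 lower (3.23%, beside 17.4%). SYCP2, the partner of SYCP3 in the lateral element, had an NRC of 3.16 and 14.9 in neoSFs and 218, 209, 152 and 196 in monoiPSCs, a log2 fold change of 4.45 (SE 0.52, edgeR adjusted p = 0.000331). MND1 (3.05) and PSMC3IP (2.05), the partners that aid strand exchange between homologues, rose, as did TRIP13 (2.81), an ATPase that remodels HORMA proteins in meiosis and at mitosis, and STAG3 (1.31, edgeR adjusted p = 0.0279), a meiotic cohesin subunit. REC114, which helps to place the breaks that start recombination, went from 44.5 and 47.8 to between 3.77 and 14.8 (log2 -2.29, SE 0.62, edgeR adjusted p = 0.0144), a call that was lost without the LSD1 neoSF library and with passage 25 as the only monoiPSC libraries. HORMAD2, MEI4, STRA8, MEIOB, TEX11 and TERB2 were at the floor in all libraries. STRA8 is the retinoic acid target that starts meiosis.

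Among 17 genes of germ cell specification with a row, 14 were tested. Of these 8 rose (57.1%, beside 24.3% of all genes tested) and 1 fell (7.14%, beside 21.6%), with a median log2 fold change of 1.41. All 14 were expressed in monoiPSCs but only 10 in both groups. The rest passed the filter through monoiPSCs alone, which largely set their direction in advance. Without a filter 8 of 17 were called higher (47.1%, beside 21.0% of all genes) and 1 lower (5.88%, beside 17.4%). PRDM14, SALL4 and LIN28A of this list are also pluripotency markers, and LIN28 was also carried by the plasmids. LIN28A, an RNA-binding protein that blocks let-7 maturation, was at the floor in neoSFs and had an NRC of 1840 to 5391 in monoiPSCs, at least 647-fold higher. PRDM14, a transcription regulator of primordial germ cells and pluripotent cells, was at least 185-fold higher, and KIT, the receptor that primordial germ cells use for survival and migration, at least 111-fold higher, with 539 to 752 against 0 and 1.55. EED (1.44), a Polycomb subunit, and DAZAP1 (1.38), an RNA-binding partner of DAZ proteins, also rose, and ITGB1, an integrin used in germ cell migration and abundant in fibroblasts, fell by 2.65 (log2, SE 0.17, edgeR adjusted p = 3.18e-05).

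Of 10 spermatid and sperm genes with a row 5 were tested and all 5 rose (beside 24.3% of all genes tested), with a median of 2.24. All 5 were expressed in monoiPSCs but only 2 in both groups. The others passed the filter through monoiPSCs alone, which largely set their direction in advance. In the fit without a filter 5 of 9 were called higher (55.6%, beside 21.0% of all genes). AKAP4, a scaffold of the sperm tail, went from 3.90 and 8.40 to 152, 405, 369 and 333 (log2 5.77, SE 0.64, edgeR adjusted p = 0.000253). TSSK6, a kinase of spermatids, was at the floor in neoSFs and had 132 to 232 in monoiPSCs, at least 28.3-fold higher. GAPDHS (2.24), the sperm form of a glycolytic enzyme, ODF2 (1.21), a protein of sperm tail fibres and of centrosomes, and CREM (1.05), a transcription factor of spermatids, made up the rest. Without the FD2M1 neoSF library 3 of the 5 were called, and also 3 with only passage 15. Of 12 oocyte genes with a row 2 were tested and both fell (beside 21.6% of all genes tested). Both were expressed in neoSFs and neither in monoiPSCs. They passed the filter through neoSFs alone, which largely set their direction in advance. In the fit without a filter 2 of 10 oocyte genes were called lower, beside 17.4% of all genes. LHX8, a homeobox gene of oocytes that is also used in mesenchyme and forebrain, had 230 and 51.8 in neoSFs and an NRC of 0 in all 4 monoiPSC libraries, at least 74.9-fold lower, and BMP15, an oocyte growth factor, went from 41.3 and 55.4 to between 1.05 and 2.81 (log2 -4.47, SE 0.50, edgeR adjusted p = 0.000268).

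Over these 5 lists 95 genes had a row, and the fit without a filter called 28 higher and 7 lower. It tested 10 of the 12 oocyte genes, 9 of the 10 spermatid and sperm genes and every gene of the other lists. In that fit 21.0% of all genes tested were called higher and 17.4% lower. A gene can pass the filter through 1 group alone, which partly sets its direction. With the filter, 24 of 47 tested genes rose (51.1%, beside 24.3% of all genes tested) and 8 fell (17.0%, beside 21.6%). The median log2 fold change was 1.21. Without the LSD1 neoSF library 5 were called lower in place of 8.

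**Figure D4:**
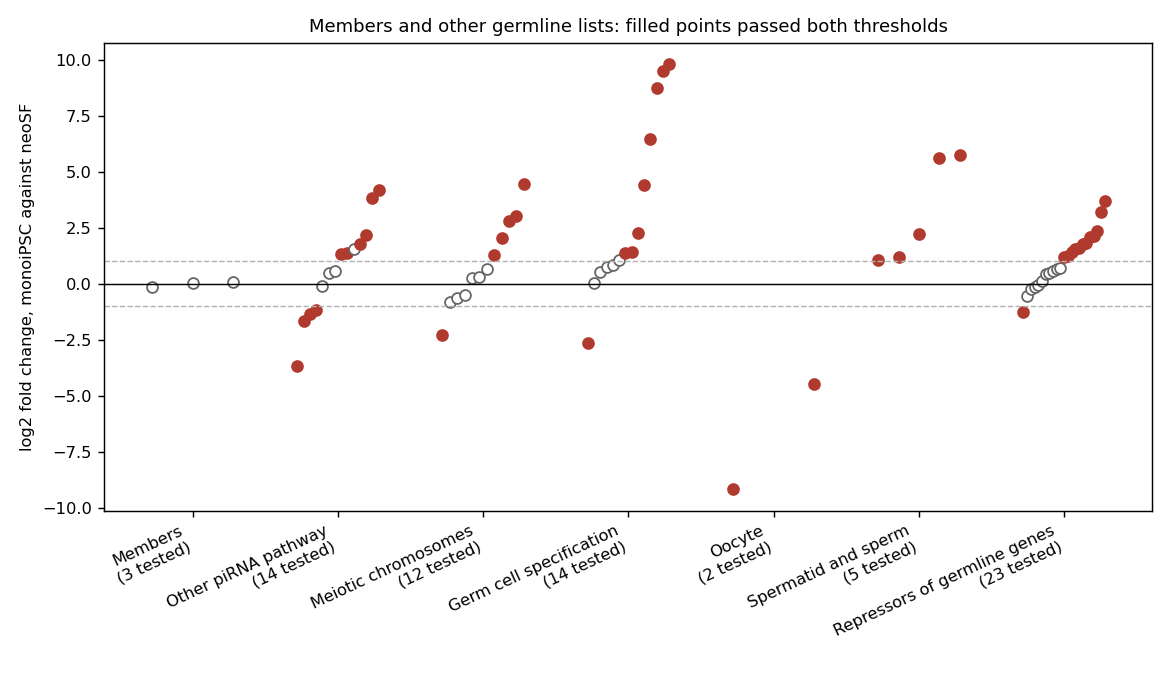
Log2 fold change of monoiPSCs against neoSFs (linear axis, 1 point per tested gene, filled where the adjusted p was at most 0.05 and the change at least 2-fold, dashed lines at 2-fold) for the named germline genes, 5 other germline lists and the repressors. The 3 tested named genes lie between -0.14 and 0.09, while 24 of 47 other germline genes are filled above and 8 below.

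Factors that keep germline genes silent in somatic cells were expressed in all libraries. Of 23 with a row, all were expressed in both groups, beside 33.1% (neoSFs) and 34.4% (monoiPSCs) of all genes. Of these 12 rose (52.2%, beside 24.3% of all genes tested) and 1 fell (4.35%, beside 21.6%). Their median log2 fold change was 1.21. UHRF1, which brings DNMT1 to newly copied DNA, had an NRC of 671 and 430 in neoSFs and 4800 to 8356 in monoiPSCs, a log2 fold change of 3.71 (SE 0.34, edgeR adjusted p = 0.000109). HELLS (3.21), a chromatin remodeller needed for DNA methylation, TFDP1 (2.35), the partner of E2F factors, E2F6 (1.23) and DNMT1 (1.21), the maintenance methyltransferase, rose too. MAX, a subunit of the E2F6 complex and partner of MYC, fell by 1.26 (log2, SE 0.18, edgeR adjusted p = 0.000734). None of the genes of the 6 lists was called between passages, between strains or for the interaction by edgeR.

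Profiles most like those of the 3 expressed members were sought among 13072 genes, as the smallest root mean square difference of centred log2 NRC over the 6 libraries. DND1 was nearest to ZNF641 (0.0523) and GATB (0.0843). MAEL was nearest to FMNL1 (0.112), TREX1 (0.167) and RBPMS (0.170), and SYCP3 to ICAM3 (0.224), SLC6A9 (0.240) and SWSAP1 (0.240).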

How the data were processed

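Total RNA of 2 neoSF and 4 monoiPSC samples had been sequenced. The authors aligned reads to MonDom5 with StrandNGS, filtered them by quality and multiple mapping, and counted them on RefSeq genes. The deposited raw counts were 85.3% fractional above 0 (tolerance 0.001), so they were taken as estimated counts, and tests used them after rounding, although whole counts had been planned for. A further deposited table holds log2 values scaled by DESeq, from which the NRC was taken, with values under 1 normalized read set to 0. The submitters' processing notes name bcl2fastq and DESeq.

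DE genes were called with edgeR 4.0.16 (quasi-likelihood, TMM, R 4.3.3) over genes whose NRC reached 20 in every library of either group, with thresholds of 0.05 on the p adjusted by Benjamini-Hochberg and of 2-fold. Scripts were tested on simulated data. DESeq2 1.42.0, limma 3.58.1, RLE scaling, no filter, strain as a block, single passages and leaving out each library were alternatives. Members not reaching the filter were also fitted without it, with the other alternatives run on that fit chosen after seeing the data. Exact permutation tests compared 4 with 2 libraries. The members and lists were chosen with earlier results of these data known, so no list was tested. Beyond the members, the text names each called gene of a list, or its 3 highest and 3 lowest log2 fold changes where over 6 were called, neighbours within 1000 bases, and 3 genes per expressed member with the nearest profile, of which 1 is not reported here. RefSeq's mMonDom1.pri table is of another assembly and gave names and neighbours only.

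Each line was made from the neoSFs of its strain, so strain pairs the libraries. The deviations from group means correlated by 0.0402 within strains over 13072 genes. Depths are given with the experiment. Counting limits cover counting error only and take a count as 1 fragment.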

Additional observations from a re-analysis of the deposited data

Results flagged for a closer look

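The NRC of MAEL in the LSD1 line at passage 25, 72.1, stood apart from the other 3 monoiPSC libraries, with a gap of 0.889 of the group's range. Chance flags about 1 in 20 groups of 4 at the threshold used, and 8 members were examined. Its values in other libraries and the marker sums of that library are given above, and no cause was tested.

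For 4 members the differences in the FD2M1 and LSD1 lines had opposite signs from passage 15 to passage 25, with 1 library per point. On the log2 NRC scale the differences were -0.038 and 1.11 for DDX4, -1.16 and 1.38 for NANOS3, -0.17 and 1.32 for MAEL, and 0.79 and -1.36 for SYCP3 (FD2M1, then LSD1). The difference between the lines was not tested, since no line has a replicate at a passage. The NANOS3 values rest on 5.00 and 2.00 counts in FD2M1 and 3.72 and 9.88 in LSD1.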

How the results depend on the processing

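DND1, MAEL and SYCP3 stayed uncalled under each alternative run, and DAZL, DDX4, NANOS3 and PIWIL2 in each fit without the filter, where single passages were not run. TDRD1, called without the filter, had adjusted p of 0.0048 to 0.0799 and lost its call without either neoSF library. With strain as a replicate block, edgeR called 6012 genes against 6000, TDRD1 kept its call without the filter (adjusted p = 0.0334), and no other call of a member or list count changed. DND1, MAEL and SYCP3 changed sign between fits: DND1 was -0.042 with limma and -0.15 with passage 25 alone, MAEL was 0.16 with passage 25 alone, and SYCP3 was -0.0087 with DESeq2, -0.011 with RLE scaling, -0.16 with limma and -0.21 with passage 25 alone. Leaving out 1 library gave -0.10 to 0.17 for DND1, -0.57 to 0.091 for MAEL and -0.36 to 0.41 for SYCP3. Leaving out 1 library and the covariate together, the range between passages was -0.059 to 1.18 for MAEL and -1.03 to 0.51 for SYCP3, and between strains -0.24 to 0.57 for DND1, -0.12 to 1.18 for MAEL and -0.31 to 1.09 for SYCP3.

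Counts over all genes depended more on the tool. Between passages DESeq2 called 88 genes higher and 27 lower where edgeR called 0, and without the covariate, leaving out the FD2M1 library of passage 25 gave 168 and 47, leaving out the LSD1 library of passage 25 gave 7 and 1, and the other two gave 0. Between strains DESeq2 called 120 and 72, and without the covariate, leaving out the LSD1 library of passage 15 gave 46 and 4, the FD2M1 library of passage 25 gave 6 and 1, and the other two gave 0. For the interaction, 11 higher and 0 lower became 202 and 102 with DESeq2, 27 and 8 without a filter, and 1 lower with RLE scaling. Over the 5 germline lists, leaving out 1 library gave 19 to 25 called higher and 5 to 9 lower. Without a filter 8 of 31 meiotic genes rose (25.8%, beside 21.0% of all genes) in place of 5 of 12 (41.7%, beside 24.3%). DESeq2 gave no adjusted p for DAZL without the filter, or for MAEL and SYCP3 between passages and strains. In neoSFs 4 members were expressed at an NRC of at least 10 and 2 at a raw count of at least 20.

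Low members were measured less finely in the neoSF libraries, where 3 counts are an NRC of 5.85 (FD2M1) and 4.75 (LSD1). Both are more than DAZL has in any monoiPSC library. The 3-count level of 5.85 (FD2M1) is also above the NANOS3 level of all 4 monoiPSC libraries, and that of 4.75 (LSD1) above 3 of 4. The 2 neoSF libraries cannot separate cell type from sequencing.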

Other observations

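PIWIL4, a nuclear PIWI protein, was chosen after its values were seen, as the PIWI relative of PIWIL2. It had 0 counts in both neoSF libraries and 15.0 and 12.3 at passage 15 and 42.0 and 12.8 at passage 25 in monoiPSCs (FD2M1, then LSD1). Its NRC in monoiPSCs was 8.42, 6.46, 26.4 and 6.59 in the same order, where 3 counts in the FD2M1 neoSF library are worth 5.85, so 3 of the 4 values lie close to that limit. RNF17, a Tudor protein that shares granules with piRNA factors, was also chosen after its values were seen. It had at most 0.127 counts in neoSFs and 4.26, 2.00, 8.49 and 16.0 in monoiPSCs, levels that straddle the neoSF limit.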
